A study of Rattus norvegicus with 6 samples.

Results

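The insulin-like growth factor (IGF) genes measured here were the ligands Igf1 and Igf2, the receptors Igf1r and Igf2r, and the binding protein genes Igfbp2 to Igfbp7, in 3 kinds of olfactory ensheathing cell (OEC) culture from the rat; OECs are glia that wrap the axons of smell neurons. A probe set, the group of probes that reports 1 transcript, was taken where the platform annotation gave 1 of these 10 symbols and no other. This gave 10 of 14371 annotated genes and 46 of 39898 probe sets, 23 on the U34A array and 23 on the RAE2.0 array. The genes were read on both array types except Igfbp4 and Igfbp7, which were read on RAE2.0 alone. TEG3 was a clonal line, derived from OECs of Wistar rats at postnatal day 60 by transfection with the SV40 large T antigen gene, and as 1 clone it stands for 1 founder cell. OEC Lp was a primary culture from Wistar rats at postnatal day 21 that had passed 50 population doublings, and OEC Ep was a primary culture of the same age and strain with fewer than 3. Immunocytochemistry is stated to have found over 90% OECs in both primary cultures. All came from the olfactory nerve layer of both bulbs and grew in DMEM with 3% fetal bovine serum, 20 µg/ml bovine pituitary extract and 2 µM forskolin. Each population had 1 array of each type, and each RNA pool came from 3 cultures. Which of the 2 pools per population went on which array is not stated in the sources used here. The p-values therefore measure how far the 2 array types disagree, pooled over all 3 populations, which may be technical.

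IGF1 and IGF2 are secreted peptides that promote the growth and survival of many cells, glia and neurons among them, through the tyrosine kinase IGF1R. IGF2R, which is also the mannose 6-phosphate receptor, carries IGF2 to lysosomes and does not signal as a kinase. The binding proteins hold IGFs in extracellular fluid and matrix, prolong their life and limit or aid their access to the receptor, and IGFBP7 binds them with low affinity.

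Of 10 OEC and Schwann cell markers on both array types, 8 were called lower in OEC Lp and 8 in TEG3 than in OEC Ep. Sox10, a transcription factor of neural crest glia, had signals of 201 in TEG3, 129 in OEC Lp and 2904 in OEC Ep on U34A, while RAE2.0 read 233, 168 and 5743. The values 129 and 168 are the floors, the 40th percentile of signals of each array type, to which lower signals were set. S100b and Gfap, further glial markers, were at the floor in TEG3 and OEC Lp on RAE2.0, and Ngfr was at the floor there but had 3621 in TEG3, 2569 in OEC Lp and 12720 in OEC Ep on U34A. Foxd3, a transcription factor of neural crest, had 629.9, 1491 and 980 on U34A, where OEC Lp above OEC Ep went against the rest. It had 168, 168 and 323 on RAE2.0. The summed signal of the list was 6560, 5977 and 37470 over 10 genes on U34A and 4356, 5083 and 106300 over 11 on RAE2.0. Genes of microglia and macrophages moved the same way. Their summed signal over 12 genes on RAE2.0 was 2082 in TEG3, 2269 in OEC Lp and 56930 in OEC Ep, with 9, 10 and 0 of the 12 at the floor. Over 6 genes on U34A it was 1064, 980.9 and 25980. Fibroblast and meningeal markers summed to 55910, 88600 and 109300 over 12 genes on U34A. On RAE2.0 they summed to 53760, 142500 and 173700 over 13 genes, with 5, 2 and 3 at the floor. Single genes went both ways. Of 11 on both types, 2 were called higher and 3 lower in OEC Lp than in OEC Ep, and 0 and 2 in TEG3. On RAE2.0 Col3a1 had 24380, 78960 and 21810, while Postn had 168, 394 and 56580. Neuron markers summed to 4432 in TEG3, 1486 in OEC Lp and 25010 in OEC Ep over 5 genes on U34A, and to 4748, 1126 and 37690 over 5 on RAE2.0. Contractile markers summed to 5943, 17620 and 16190 over 6 genes on U34A, but to 11770, 2689 and 23650 over 7 on RAE2.0. Endothelial markers summed to 687.9, 387 and 414 over 3 genes on U34A. On RAE2.0 they summed to 1449, 2350 and 1291 over 6, with 3, 2 and 2 at the floor. RNA quality, read as the 3'/5' signal ratio of the GAPDH control probe sets, was 1.48, 1.47 and 1.86 on U34A and 1.02, 0.981 and 1.02 on RAE2.0. Marker levels that differ from OEC Ep run alongside the differences from OEC Ep given here, and their part in those differences was not tested. Nor was that of the GAPDH ratio, which differed from OEC Ep on U34A but hardly on RAE2.0. In such bulk RNA, fewer cells of a type and less RNA per cell cannot be told apart.

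In OEC Lp, Igfbp5 and Igfbp3 fell and Igfbp6 rose relative to OEC Ep. In TEG3, Igfbp5 and Igfbp3 fell relative to OEC Ep. Of the 8 genes on both array types 1 passed as higher and 2 as lower in OEC Lp against OEC Ep, where 2.11% of all 3129 genes tested passed as higher and 4.03% as lower (6.14% in all). In TEG3 against OEC Ep 0 passed as higher and 2 as lower, where 0.671% and 3.84% of all genes did (4.51%). In TEG3 against OEC Lp limma called 0 of the 8, where 0.192% of all genes passed as higher and 1.12% as lower (1.31%), and at an unadjusted p under 0.05 it called 2, Igfbp2 and Igfbp6, against 15.4% of all genes. At that unadjusted cut it called 6 of the 8 in OEC Lp and 5 in TEG3 against OEC Ep, where 19.7% and 21.8% of all genes passed. A gene passed at a Benjamini-Hochberg adjusted p under 0.05 in limma, fitted to all genes with terms for population and array type; without the term for array type, or without the filter on dim probe sets, 0 of the 8 passed in any comparison. The median log2 fold of the 8 genes was 0.69, 0.28 and -0.44 in these 3 comparisons, against 0.11, 0.04 and -0.01 over all genes tested. Both comparisons with OEC Ep share its arrays. Of the 46 probe sets 41 exceeded the floor on at least 1 array, 12 of them in OEC Ep alone and 4 in OEC Lp alone, which fixed their direction.

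**Figure D1:**
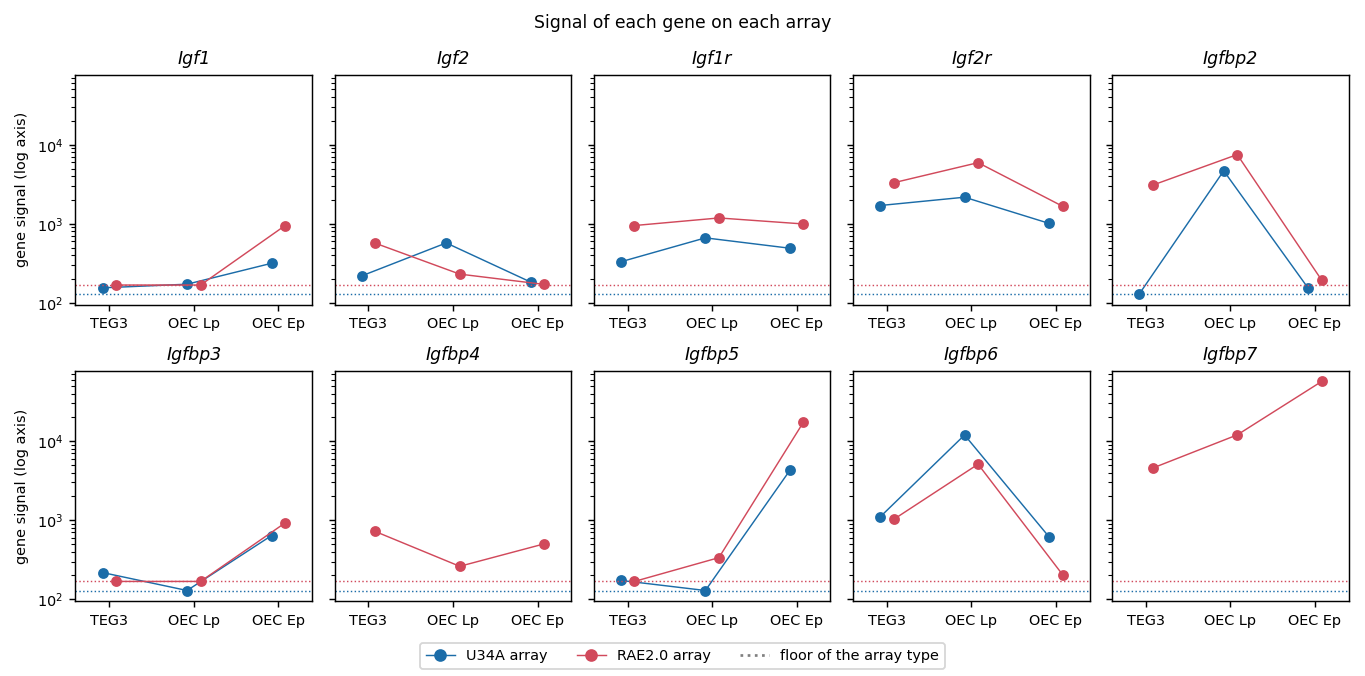
Gene signal, on a log axis, of the 10 genes in TEG3, OEC Lp and OEC Ep, with 1 point per array, lines joining arrays of 1 type and dotted lines at the floors of 129 (U34A) and 168 (RAE2.0). Igfbp5 stands at 4274 and 17360 in OEC Ep and at or under 336 elsewhere, and Igfbp6 stands at 11950 and 5107 in OEC Lp; heights of different genes rest on different probes and are not comparable.

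Igfbp5 codes for a binding protein that attaches to extracellular matrix and can act on cells also without IGF. Its gene signal, the geometric mean of its probe sets after the floor was set, was 173 in TEG3, 129 in OEC Lp and 4274 in OEC Ep on U34A. The RAE2.0 values were 168, 336 and 17360. Within each array type OEC Ep lay far above TEG3 and OEC Lp. Igfbp5 was at least 41.4-fold lower in OEC Lp than in OEC Ep (log2 fold -5.37 ± 0.53 SE, limma adjusted p = 0.00849) and at least 50.5-fold lower in TEG3 (log2 fold -5.66 ± 0.53, limma adjusted p = 0.00988). Folds are written "at least" where the lower population was at the floor on a probe set. The array types were further apart for TEG3, with log2 folds of -4.63 on U34A and -6.69 on RAE2.0, a gap met or exceeded by 3.39% of genes. TEG3 and OEC Lp differed by a log2 fold of -0.29 ± 0.53 (limma adjusted p = 0.862). All 8 Igfbp5 probe sets had a higher signal in OEC Ep than in the other populations. For M62781_at, rc_AI070577_at, 1387347_at and 1396152_s_at, above the floor in OEC Ep alone, the filter fixed this direction. The brightest of the 8, 1370960_at, had 82 in TEG3, 973 in OEC Lp and 59479 in OEC Ep. The brightest on U34A, rc_AI029920_s_at, had 311, 67 and 31258. So the order of TEG3 and OEC Lp differed between the array types. On RAE2.0 the probe sets 1370960_at and 1387348_at kept 973 and 886 in OEC Lp, against 82 and 50 in TEG3. Without 1 of the OEC Lp or OEC Ep arrays the adjusted p for OEC Lp against OEC Ep was 0.162 to 0.254, and without any 1 of the 6 arrays that for TEG3 against OEC Ep was 0.0816 to 0.248. It was 0.0535 for TEG3 against OEC Ep when no floor was set, with a log2 fold of -7.40.

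Igfbp3 codes for the main carrier of IGFs in blood. Its gene signal was 217.6 in TEG3, 129 in OEC Lp and 639.3 in OEC Ep on U34A, and 168, 168 and 923.5 on RAE2.0. Again OEC Ep was the highest on both types, and only 1 of 4 probe sets exceeded the floor outside OEC Ep, M31837_at with 367 in TEG3. Igfbp3 was at least 5.22-fold lower in OEC Lp than in OEC Ep (log2 fold -2.38 ± 0.35, limma adjusted p = 0.0221) and at least 4.02-fold lower in TEG3 (log2 fold -2.01 ± 0.35, limma adjusted p = 0.0419). The probe sets agreed in direction, which was fixed for those above the floor in OEC Ep alone, but not in size. M31837_at had 367, 35 and 1195 in TEG3, OEC Lp and OEC Ep, and rc_AI009405_s_at had 23, 28 and 342. Without any 1 of the 6 arrays the adjusted p was 0.0695 to 0.313 for OEC Lp and 0.137 to 0.348 for TEG3. With the brightest probe set alone it was 0.0536 for TEG3, and with no floor 0.057, where the log2 folds were -4.54 for OEC Lp and -3.06 for TEG3.

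Igfbp6 codes for a binding protein that prefers IGF2 over IGF1. Its gene signal was 1096 in TEG3, 11950 in OEC Lp and 615 in OEC Ep on U34A, and 1021, 5107 and 204.5 on RAE2.0. OEC Lp was the highest and OEC Ep the lowest on both types, with TEG3 between them. Igfbp6 rose at least 22.0-fold in OEC Lp against OEC Ep (log2 fold 4.46 ± 0.44, limma adjusted p = 0.00849). Relative to the mean of each array type, its log2 signal was -0.44 ± 0.62 in TEG3, 2.45 ± 0.18 in OEC Lp and -2.01 ± 0.44 in OEC Ep (SD, n = 2 arrays). These SDs measure how far the 2 array types disagree, and limma passed only OEC Lp against OEC Ep. TEG3 was 7.38-fold lower than OEC Lp (log2 fold -2.88 ± 0.44), which missed the threshold (limma adjusted p = 0.0548) and passed it with quantile normalization (0.0430), with the brightest probe set (0.0446) and with probe sets above the floor on all arrays (0.0209). Over all alternatives that p ran from 0.0209 to 0.835. TEG3 against OEC Ep had a log2 fold of 1.58 ± 0.44, a lower bound (limma adjusted p = 0.118). The 3 probe sets gave log2 folds of 4.26 to 5.03 for OEC Lp against OEC Ep, and 0.83 on U34A against 2.09 and 2.55 on RAE2.0 for TEG3 against OEC Ep. Without 1 of the OEC Lp or OEC Ep arrays the adjusted p for OEC Lp against OEC Ep was 0.157 to 0.254.

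Igfbp2 codes for a binding protein abundant in fetal tissues and in cerebrospinal fluid. Its gene signal was 129 in TEG3, 4675 in OEC Lp and 152.9 in OEC Ep on U34A, and 3083, 7504 and 193 on RAE2.0. Both OEC Lp arrays were high and both OEC Ep arrays were near the floor, while the TEG3 arrays fell on opposite sides. OEC Lp was at least 34.5-fold higher than OEC Ep (log2 fold 5.11 ± 1.03), the highest log2 fold of the 8 genes in that comparison. It missed the threshold with a limma adjusted p of 0.0502, which was 0.0438 with quantile normalization, 0.0358 with the brightest probe set, 0.0370 with the 4 arrays compared or without either TEG3 array, and 0.466 at most. In TEG3 the 3 U34A probe sets, A09811cds_s_at, J04486_at and M91595exon_s_at, had signals of 41, 83 and 75, all below the floor, whereas in OEC Lp they had 7115, 5871 and 2445. For A09811cds_s_at and J04486_at, above the floor in OEC Lp alone, the filter fixed this direction. M91595exon_s_at also exceeded the floor in OEC Ep, at 215. On RAE2.0 the single probe set 1367648_at had 3083 in TEG3, 7504 in OEC Lp and 193 in OEC Ep. TEG3 against OEC Ep therefore had a log2 fold of -0.25 on U34A and 3.998 on RAE2.0. A gap between types as large as this was seen for 0.288% of the genes tested. Because the SE is pooled over the populations, this gap also enters that of OEC Lp against OEC Ep. The joint fit gave TEG3 a log2 fold of 1.88 ± 1.03 against OEC Ep (limma adjusted p = 0.358) and -3.23 ± 1.03 against OEC Lp (limma adjusted p = 0.229). Without the RAE2.0 array of TEG3 the log2 fold against OEC Ep was -0.16, and without its U34A array 3.91.

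**Figure D2:**
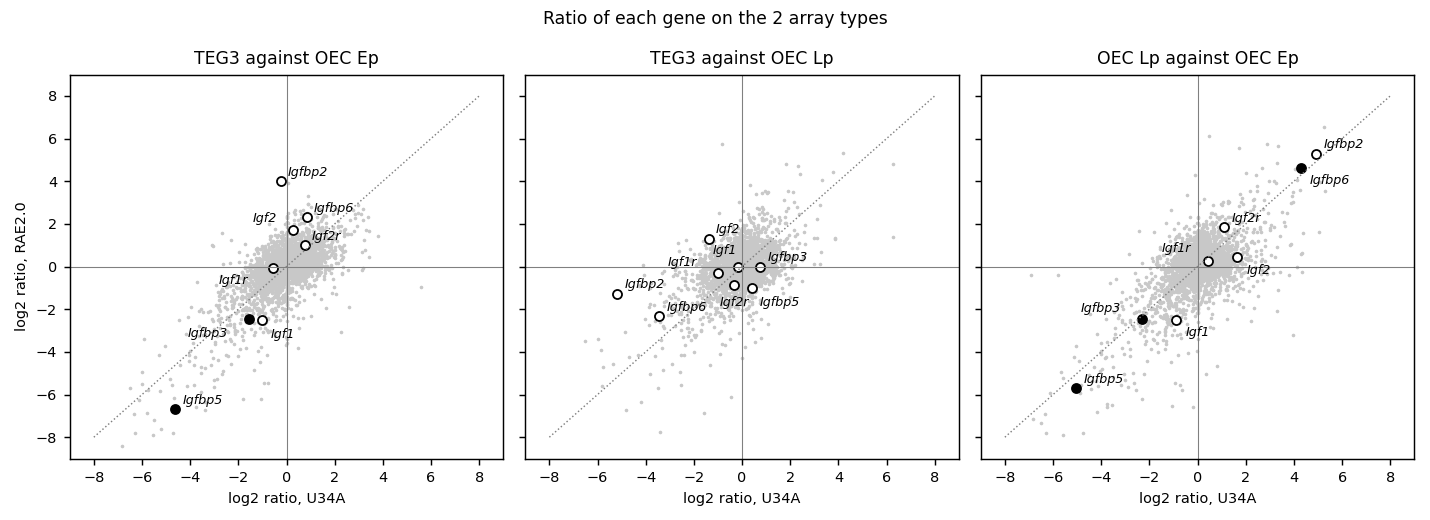
Log2 ratio of each gene on U34A (x axis) and on RAE2.0 (y axis) for the 3 comparisons, with grey points for all 3129 genes, labelled circles for the 8 genes described here (filled where limma passed) and a dotted line where the types are equal. In OEC Lp against OEC Ep the gap between types was met or exceeded by 43.9% of genes for Igfbp5 and by 63.9% for Igfbp6. Igfbp2 in TEG3 against OEC Ep lies at -0.25 on U34A and 3.998 on RAE2.0.

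Igfbp7 and Igfbp4 were read on RAE2.0 alone, with 1 array per population and no replicate check. Igfbp7, also known as angiomodulin, codes for a secreted protein of vessel walls and other tissues. Its signal on 1371357_at was 4563 in TEG3, 11985 in OEC Lp and 56945 in OEC Ep, or 12.5-fold lower in TEG3 and 4.75-fold lower in OEC Lp than in OEC Ep. All 3 values were far above the floor. Igfbp4, which codes for an inhibitory binding protein cleaved by pappalysin, had 720 in TEG3, 261 in OEC Lp and 502 in OEC Ep on 1371462_at. The TEG3 signal was thus 2.76-fold that of OEC Lp, and the ratios to OEC Ep were 1.43 for TEG3 and 0.52 for OEC Lp.

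Of the ligands, Igf1 had signals above the floor mainly in OEC Ep. Its gene signal was 154.8 in TEG3, 172.1 in OEC Lp and 316.6 in OEC Ep on U34A, and 168, 168 and 949.4 on RAE2.0. OEC Ep was the highest on both types, but the log2 folds of -1.77 ± 0.48 in TEG3 and -1.69 ± 0.48 in OEC Lp against OEC Ep did not pass (limma adjusted p = 0.112 and 0.123). The 5 U34A probe sets disagreed: M15481_g_at had 21, 9 and 716 in TEG3, OEC Lp and OEC Ep, while M15481_at, built on the same transcript record, had 204, 254 and 122. The RAE2.0 probe set 1370333_a_at, from the same record, had 46, 35 and 1205. All but M15481_at of the 7 probe sets that passed the filter were highest in OEC Ep. Of these, only X06107_r_at also exceeded the floor elsewhere, with 203, 277 and 473. The others passed through OEC Ep alone, which fixed their direction. The macrophage genes given with the markers were also highest in OEC Ep. Macrophages are a known source of IGF1, and the part of such cells in the Igf1 difference was not tested.

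Igf2 was low on most probe sets, and the array types named different populations as the highest. On U34A X17012mRNA_s_at had 233 in TEG3, 3694 in OEC Lp and 72 in OEC Ep, and E00988mRNA_s_at had 98, 585 and 59. On RAE2.0 1367571_a_at had 1921, 237 and 174, and 1371206_a_at had 81, 225 and 21. OEC Ep exceeded the floor of these 4 only on 1367571_a_at, and TEG3 did not exceed it on E00988mRNA_s_at and 1371206_a_at. OEC Lp was the highest on 3 of the 4 and TEG3 on 1367571_a_at. For E00988mRNA_s_at and 1371206_a_at, above the floor in OEC Lp alone, the filter fixed this. The other 6 Igf2 probe sets stayed at or under 385 on every array, and 4 of them never exceeded the floor. The gene signal was 219.3, 572.4 and 183 on U34A and 568.1, 230.9 and 171 on RAE2.0, again for TEG3, OEC Lp and OEC Ep. The log2 fold of TEG3 against OEC Lp was -1.38 on U34A and 1.30 on RAE2.0, a gap met or exceeded by 1.76% of genes, and the joint value was -0.04 ± 0.64 (limma adjusted p = 1). Against OEC Ep the joint log2 folds were 0.997 ± 0.64 for TEG3 and 1.04 ± 0.64 for OEC Lp (limma adjusted p = 0.419 and 0.456).

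None of the differences of the receptor genes passed. Igf2r had gene signals of 1702 in TEG3, 2168 in OEC Lp and 1012 in OEC Ep on U34A, while RAE2.0 gave 3302, 5930 and 1666. The order was the same on both types, with OEC Lp highest and OEC Ep lowest. OEC Lp was 2.76-fold above OEC Ep (log2 fold 1.47 ± 0.33), which did not pass (limma adjusted p = 0.0693), and TEG3 1.83-fold (log2 fold 0.87 ± 0.33, limma adjusted p = 0.214). All 3 probe sets had this order, with 3930, 8891 and 2202 on 1386872_at. Igf1r had 330.7, 663.8 and 490.6 on U34A and 950.2, 1185 and 994.8 on RAE2.0 in TEG3, OEC Lp and OEC Ep. Its log2 folds against OEC Ep were -0.32 ± 0.33 for TEG3 and 0.34 ± 0.33 for OEC Lp (limma adjusted p = 0.631 and 0.633). The sign for TEG3 rested on M27293_s_at, with 82, 426 and 321. With the brightest probe set, and with probe sets above the floor on all arrays, the log2 fold was 0.13 and 0.06.

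**Figure D3:**
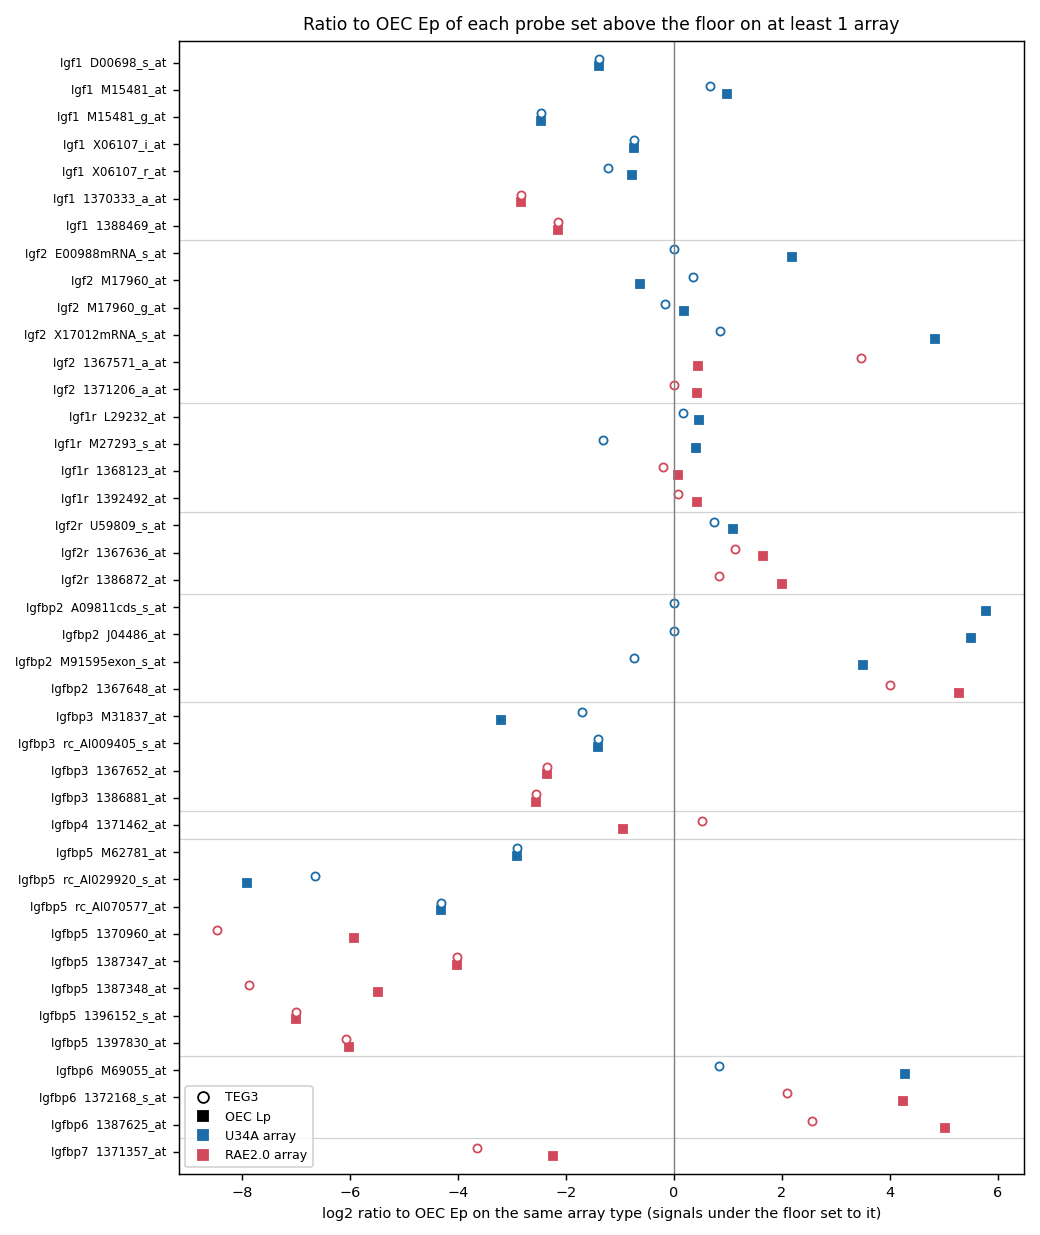
Log2 ratio to OEC Ep of each of the 41 probe sets above the floor on at least 1 array, for TEG3 (open circles) and OEC Lp (filled squares), coloured by array type. The 8 Igfbp5 and 4 Igfbp3 probe sets lie left of 0 in both populations, the 3 Igfbp6 probe sets lie right of 0, and those of Igf2 and Igfbp2 differ between types in TEG3. Of the 41, the 12 above the floor in OEC Ep alone could lie only left of 0. The 4 above it in OEC Lp alone could lie only at 0 or right of it.

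Igfbp2 and Igfbp5 are next to each other on rat chromosome 9 in RefSeq's annotation of GRCr8, on opposite strands and with no other coding gene between them. They ran in opposite directions in OEC Lp against OEC Ep, at log2 folds of 5.11 and -5.37. Igfbp3 lies next to Igfbp1 on chromosome 14. Igfbp1, a binding protein of liver, had signals of 74, 29 and 47 in TEG3, OEC Lp and OEC Ep on U34A, and 12, 15 and 7 on RAE2.0, below both floors. The 250 bases before the annotated start are shown for the 2 genes that fell, Igfbp5 and Igfbp3, and the 2 with the highest folds in OEC Lp, Igfbp6 and Igfbp2, from RefSeq on GRCr8, 5′ to 3′. Capitals mark the E-box letters CANNTG and the GC box letters GGGCGG, searched on both strands.
Igfbp5, chr9:81914188-81914437, minus strand: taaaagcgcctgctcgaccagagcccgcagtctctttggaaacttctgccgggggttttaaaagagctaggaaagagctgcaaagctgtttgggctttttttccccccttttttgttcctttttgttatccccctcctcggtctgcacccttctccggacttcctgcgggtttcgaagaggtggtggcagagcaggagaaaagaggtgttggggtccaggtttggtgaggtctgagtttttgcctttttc
Igfbp3, chr14:86277945-86278194, minus strand: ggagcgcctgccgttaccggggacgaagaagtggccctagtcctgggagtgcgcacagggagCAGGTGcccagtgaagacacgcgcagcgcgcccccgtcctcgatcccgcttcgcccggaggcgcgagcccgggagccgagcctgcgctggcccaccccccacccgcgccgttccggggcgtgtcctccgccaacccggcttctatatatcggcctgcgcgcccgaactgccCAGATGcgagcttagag
Igfbp6, chr7:135154669-135154918, plus strand: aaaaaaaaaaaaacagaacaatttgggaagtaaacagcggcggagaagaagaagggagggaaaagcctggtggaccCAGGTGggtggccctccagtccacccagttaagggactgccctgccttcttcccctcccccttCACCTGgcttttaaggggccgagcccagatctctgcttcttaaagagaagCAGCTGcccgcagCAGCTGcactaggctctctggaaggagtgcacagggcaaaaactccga
Igfbp2, chr9:81864561-81864810, plus strand: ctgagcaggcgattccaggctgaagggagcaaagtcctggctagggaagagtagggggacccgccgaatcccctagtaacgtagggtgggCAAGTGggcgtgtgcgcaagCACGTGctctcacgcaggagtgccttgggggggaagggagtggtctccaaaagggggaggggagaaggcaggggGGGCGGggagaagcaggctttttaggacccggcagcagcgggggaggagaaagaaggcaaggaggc
The E-box letters occurred 0 times before Igfbp5, 2 times before Igfbp3, 4 times before Igfbp6 and 2 times before Igfbp2, and 65.5% of 33469 such windows held at least 1. The GC box letters occurred once before Igfbp2 and in 30.5% of windows, and no capitals overlap. These matches describe the letters in these windows alone.

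The genes whose pattern over the 6 arrays was nearest to each gene that passed were found by the Euclidean distance between log2 signals centred within each array type. Nearest to Igfbp5 were Nefl, a neurofilament subunit, Entpd2, an ectonucleotidase, and Sod3, the extracellular superoxide dismutase, at distances of 1.02, 1.05 and 1.07. Nefl had 129, 146.8 and 6981 in TEG3, OEC Lp and OEC Ep on U34A and 168, 247.7 and 9367 on RAE2.0. Nearest to Igfbp3 were Avpr1a, a vasopressin receptor, Zfp697, a zinc finger gene, and Aldh1a1, a retinaldehyde dehydrogenase (0.39, 0.44 and 0.47). Nearest to Igfbp6 were Masp1, a complement protease, Msx1, a homeobox gene, and Nupr1, a stress-induced nuclear protein (0.59, 0.92 and 0.92). Masp1 had 543.9, 4882 and 292 in TEG3, OEC Lp and OEC Ep on U34A and 1686, 5168 and 218.4 on RAE2.0. This is the order of Igfbp6 on both types, which the choice by distance favours.

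Other genes of the IGF system and of its partners were read from 7 lists of 81 genes, of which 40 were on both array types. In OEC Lp against OEC Ep limma called 1 of the 40 higher and 0 lower (4 and 2 at an unadjusted p under 0.05), in TEG3 against OEC Ep 0 higher and 1 lower (1 and 6), and in TEG3 against OEC Lp 0 higher and 2 lower (1 and 6). Over all genes 6.14%, 4.51% and 1.31% passed in these comparisons, and 19.7%, 21.8% and 15.4% at the unadjusted cut. Their median log2 folds were 0.07, -0.04 and 0.09, against 0.11, 0.04 and -0.01 over all genes. Of 10 receptor adaptors and regulators limma called 0 in any comparison (1, 0 and 1 at an unadjusted p under 0.05), which with shares over all genes as low as these says nothing particular of the list. The gene called among 17 genes of the PI3K, AKT and mTOR list was Rictor, the scaffold of mTOR complex 2. It had 293 in TEG3, 1602 in OEC Lp and 314 in OEC Ep on U34A, and 2016, 11530 and 1620 on RAE2.0, high in OEC Lp on both types. It rose 6.03-fold in OEC Lp against OEC Ep (log2 fold 2.59 ± 0.31, limma adjusted p = 0.0130) and was 5.59-fold lower in TEG3 than in OEC Lp (log2 fold -2.48 ± 0.31, limma adjusted p = 0.0361). These p-values were 0.0683 and 0.352 with the 4 arrays compared, and 0.0683 to 0.254 and 0.245 to 0.352 without any 1 array.

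Of 6 matrix and surface partners of the binding proteins, Spp1 (osteopontin, which binds IGFBP5 and is also made by macrophages) had 286, 1727 and 18220 in TEG3, OEC Lp and OEC Ep on U34A and 168, 5127 and 7698 on RAE2.0. It was at least 54.0-fold lower in TEG3 than in OEC Ep (log2 fold -5.76 ± 0.70, limma adjusted p = 0.0162, and 0.0789 to 0.269 without any 1 array). Esm1, endocan, which carries a domain like that of the binding proteins, had 129, 1570 and 226 on U34A and 168, 3058 and 1309 on RAE2.0. It was at least 14.9-fold lower in TEG3 than in OEC Lp (log2 fold -3.90 ± 0.55, limma adjusted p = 0.0449, and 0.290 to 0.352 without any 1 array). OEC Lp was thus the highest for Esm1 and the middle one for Spp1.

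A further 24 genes of these lists were on RAE2.0 alone and have no test. At least 2-fold higher and lower were 2 and 2 of them in OEC Lp against OEC Ep, where 10.4% of all genes on RAE2.0 were higher and 10.4% lower. The counts were 4 and 2 in TEG3 against OEC Ep (12% and 10.6% of all genes) and 5 and 6 in TEG3 against OEC Lp (9.61% and 8.66%). Htra1, a secreted protease that cleaves IGFBP5 among other substrates, had a signal of 6060 in TEG3, 271 in OEC Lp and 10132 in OEC Ep. Low Htra1 set the OEC Lp array apart from the others. Kazald1, a protein related to the binding proteins, had 238, 3393 and 387, and Ccn4, a CCN matrix protein, 351, 2240 and 247. Both were highest in OEC Lp, as Igfbp6 was. Ccn2, the connective tissue growth factor, had 7364, 21375 and 42588 in TEG3, OEC Lp and OEC Ep, the order seen for Igfbp7.

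**Figure D4:**
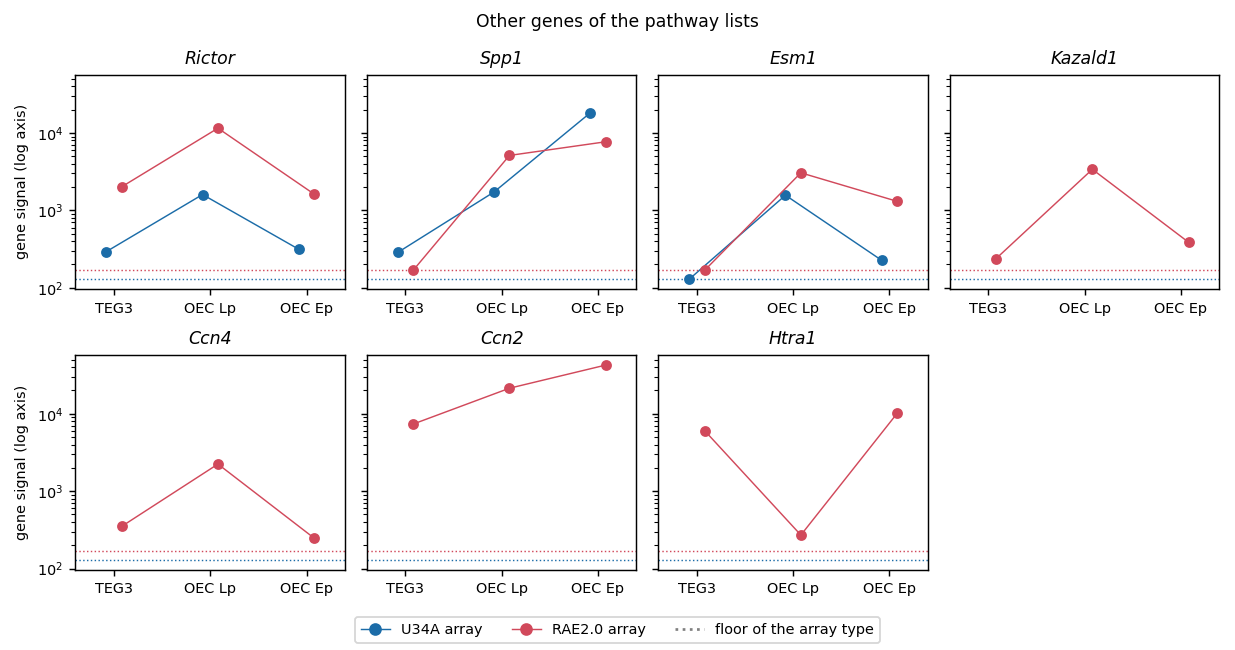
Gene signal, on a log axis, of 7 other genes of the pathway lists in TEG3, OEC Lp and OEC Ep, drawn as in the plot of the 10 genes. Rictor, Esm1, Kazald1 and Ccn4 are highest in OEC Lp, while Htra1 is lowest there at 271 against 6060 in TEG3 and 10132 in OEC Ep.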

How the data were processed

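The authors deposited 1 linear signal intensity per probe set, made with MAS5 per the submitters' processing notes. Their design text mentions filtering with Microarray Suite version 5.0, at a setting not given in the sources used here. Scaling within a type equalised the means left after trimming 2% at each end. The floor for low signals was the 40th percentile (129 for U34A and 168 for RAE2.0). Control probe sets were dropped, as were those never above the floor on the 3 arrays of their type. Between 59.1 and 61.8% of probe sets exceeded the floor per array. A gene took the log2 mean over its probe sets with 1 annotated symbol (3722 genes on U34A, 11542 on RAE2.0, 3129 on both). The number of arrays limits the precision.

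Genes on both types were fitted in limma 3.58.1 (R 4.3.3) over all 6 arrays, with population and array type, the replicate block, as terms (2 residual and 3.64 prior degrees of freedom); this block comes from the titles and joins arrays of a type. Its residual is the disagreement of the types on the differences among all 3 populations. The test therefore favours genes with like ratios on both types, though the ratios of a called gene can differ. The types were normalized separately, and levels were compared within a type only. The fit was also run on simulated data with independent normal noise not held at a floor. That run cannot speak for calls that rest on floored signals. Lists are given as counts with no set test. Named were all members, called list genes, list genes on RAE2.0 alone with at least a 4-fold difference, and the 3 nearest genes of each member that passed. Alternatives were no floor, other filters, quantile normalization, the brightest probe set, fewer arrays, no block and each array left out. The members and lists were chosen with earlier results of these data known. Promoter sequences and gene order came from RefSeq (GRCr8), where all 10 genes were found.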

Additional observations from a re-analysis of the deposited data

How the results depend on the processing

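The number of the 8 genes called was compared over 7 alternatives and with each array left out. In OEC Lp against OEC Ep it was 3, and became 0 with no filter on dim probe sets, 1 of 4 with probe sets above the floor on every array of the type, and 0 when the replicate block of array type was dropped; without 1 array it was 0 to 3. It was 4 with quantile normalization and with the brightest probe set, where Igfbp2 was added, and 3 with the 4 arrays compared, where Igfbp2 stood in place of Igfbp3. In TEG3 against OEC Ep it was 2, and became 1 with the brightest probe set and 0 with no floor, with no filter, with the 4 arrays compared, with probe sets above the floor on every array of the type and with no replicate block; without 1 array it was 0 each time. In TEG3 against OEC Lp it was 0, and became 1 (Igfbp6) with quantile normalization, with the brightest probe set and with probe sets above the floor on every array of the type. With an array left out, the lone array of a population was taken to vary as the other groups do. Such a fit has fewer residual degrees of freedom for every gene, and calls were lost over all genes, not in these 8 alone. Leaving out a TEG3 array gave OEC Lp against OEC Ep the same values as the 4 arrays compared. No called difference turned its sign where it could be fitted. With the floor set, the Igfbp5 and Igfbp3 probe sets above it in OEC Ep alone could not turn. Igfbp5, Igfbp3, Esm1 and Spp1 lacked a probe set above the floor on every array in 1 or both types. They so had no value in the setting that asks for this. Among differences that did not pass, the log2 fold of TEG3 against OEC Ep turned for Igf1r (0.0554 with probe sets above the floor on every array of the type, 0.13 with the brightest probe set), and ran without 1 array from -0.0417 to 2.04 for Igf2, from -0.16 to 3.91 for Igfbp2 and from -0.1161 to 0.3316 for Rictor. TEG3 against OEC Lp turned for Igf1 (0.93 with no floor) and Igf2 (1.33 with probe sets above the floor on every array of the type, 0.0524 with quantile normalization), and ran without 1 array from -0.52 to 0.37 for Igf1, from -1.08 to 0.996 for Igf2, from -0.0374 to 0.79 for Igfbp3 and from -1.16 to 0.58 for Igfbp5. The causes were not tested. Alternatives for the other list genes were chosen after seeing the data. Over all 3129 genes limma made 192, 141 and 41 calls in these comparisons, in the order given here, against 66, 11 and 0 with no floor, 1, 1 and 0 with no filter, 77, 86 and 40 with probe sets above the floor on every array of the type, 38, 0 and 0 with the 4 arrays compared, and 0 each with no replicate block. Signals near the floor set the limit: Igf1 and Igfbp3 in TEG3 and OEC Lp were at the floor on RAE2.0, so their order there was not measurable.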
